A study of Homo sapiens with 24 samples.

Results

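The HOXA, HOXC and HOXD clusters were examined through the genomic regions over which histone marks were counted in human ventricular-like cardiomyocytes. The members are all counted regions that overlap chr7:27125000-27290000 (HOXA genes and EVX1), chr12:54325000-54455000 (HOXC genes) or chr2:176940000-177060000 (HOXD genes and EVX2), in the build hg19, with positions counted from 1. This position rule, which uses no measured value, gave 45 of the 153244 counted regions. The HOXA window held 16 regions, the HOXC window 18 and the HOXD window 11. The cells came from H9, a human embryonic stem cell line, differentiated with a commercial ventricular kit and harvested at day 15. The 2 arms are control cells and cells labelled as a knockdown of the zinc finger gene ZNF436. Both share the H9 background and the differentiation. CUT&Tag, in which an antibody guides a transposase to marked chromatin, was run for H3K9me3, H3K4me3, H3K4me1 and H3K27ac with 3 control and 3 knockdown libraries per mark, 24 in all. All cells derive from 1 line, and the knockdown method was not stated in the sources used here. The level of ZNF436 RNA or protein is not measured by these libraries and was not checked. The marker genes of cardiomyocytes were not checked either, because no hg19 gene annotation was used here.

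HOX genes encode homeodomain transcription factors that give cells their position along the body axis, and within a cluster the genes lie in the order in which they are used from head to tail. Genes at the 3′ end, such as HOXA2, HOXA3, HOXD1 and HOXD3, act in the hindbrain, the pharyngeal region and the anterior trunk. Genes at the 5′ end, such as HOXA13 and HOXD13, act in the distal limb and the urogenital tract, and EVX1 and EVX2 are homeobox genes that sit beyond that end. In cells that do not use them, HOX clusters are classically held by Polycomb and its mark H3K27me3, which is not among the marks measured here. H3K4me3 marks promoters, H3K4me1 and H3K27ac together mark active enhancers, and H3K9me3 marks heterochromatin.

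The 30 listed genes were all found in the RefSeq gene table of GRCh38.p14, from which only their order was taken. From its start, the HOXA window runs from HOXA2 through HOXA3, HOXA4, HOXA5, HOXA6, HOXA7, HOXA9, HOXA10, HOXA11 and HOXA13 to EVX1. The HOXC window runs the opposite way, from HOXC13 through HOXC12, HOXC11, HOXC10, HOXC9, HOXC8, HOXC6 and HOXC5 to HOXC4. The HOXD window runs from EVX2 through HOXD13, HOXD12, HOXD11, HOXD10, HOXD9, HOXD8, HOXD4 and HOXD3 to HOXD1. The counted regions are in another build, hg19, so single regions are given by position and by their number along the window, and no gene is assigned to a region.

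RefSeq (GRCh38.p14) gave promoter sequences for 21 of the 30 genes, 28 sequences in all. The promoters shown are those of genes at the window ends where H3K4me3 was concentrated (EVX1, HOXA13, HOXC4, EVX2, HOXD13). Each is the 250 bases before the transcription start, 5′ to 3′, with CpG dinucleotides in capitals, since CpG-rich promoters are the usual seat of H3K4me3. Which counted region, if any, holds each of them was not determined. HOXC5 is listed with the same sequence as HOXC4.
EVX1: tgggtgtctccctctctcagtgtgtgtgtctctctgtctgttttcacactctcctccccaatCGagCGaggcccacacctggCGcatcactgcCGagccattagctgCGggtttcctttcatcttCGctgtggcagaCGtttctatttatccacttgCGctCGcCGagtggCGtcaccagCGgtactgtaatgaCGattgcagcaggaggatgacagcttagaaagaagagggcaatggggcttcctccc
HOXA13: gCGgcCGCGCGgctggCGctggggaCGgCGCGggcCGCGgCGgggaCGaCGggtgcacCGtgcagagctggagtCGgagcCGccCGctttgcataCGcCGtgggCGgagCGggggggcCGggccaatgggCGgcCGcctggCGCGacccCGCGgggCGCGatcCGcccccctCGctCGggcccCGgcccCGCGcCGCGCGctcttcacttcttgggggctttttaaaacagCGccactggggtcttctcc
HOXC4: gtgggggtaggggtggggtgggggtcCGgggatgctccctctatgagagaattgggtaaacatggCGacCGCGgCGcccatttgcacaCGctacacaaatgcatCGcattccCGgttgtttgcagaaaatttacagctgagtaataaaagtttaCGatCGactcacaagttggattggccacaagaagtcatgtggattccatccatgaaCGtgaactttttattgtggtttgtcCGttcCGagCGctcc
EVX2: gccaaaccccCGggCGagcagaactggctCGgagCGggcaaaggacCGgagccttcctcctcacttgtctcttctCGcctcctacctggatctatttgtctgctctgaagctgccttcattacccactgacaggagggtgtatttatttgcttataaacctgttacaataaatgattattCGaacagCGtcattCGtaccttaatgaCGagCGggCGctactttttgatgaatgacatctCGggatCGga
HOXD13: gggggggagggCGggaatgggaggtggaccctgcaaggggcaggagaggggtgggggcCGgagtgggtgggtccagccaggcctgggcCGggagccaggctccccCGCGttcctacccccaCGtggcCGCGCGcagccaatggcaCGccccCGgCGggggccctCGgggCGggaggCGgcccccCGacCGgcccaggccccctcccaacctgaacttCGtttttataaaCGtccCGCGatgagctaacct
These promoters held 13 (EVX1), 40 (HOXA13), 14 (HOXC4), 14 (EVX2) and 21 (HOXD13) CpG dinucleotides. HOXA13 was the most CpG-rich of the 28, at the 98.3 percentile of all 35116 RefSeq promoters of this length. Across the 28, the median was 19 CpG against 11 over all promoters, the range was 0 to 40, and 21 lay above the median of all promoters. EVX1, HOXC4 and EVX2 lay under the median of the 28, and HOXA13 and HOXD13 lay above it. The promoters not shown held from 0 (a HOXA3 promoter) to 31 (HOXD1). Whether CpG content goes with the H3K4me3 ends was not tested. The letters TAAT, the core that many homeodomains bind, were searched on both strands and occurred in 21 of 28 against 47.4% of all promoters. The letters TATAAA, searched on both strands, occurred in 6 of 28 (21.4%) against 10.7%. The 2 motifs share letters and can overlap, and several promoters belong to 1 gene (7 are of HOXA3), so these shares are descriptions.

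Depth differed by mark. Total counts per library were 2103185 to 2880412 for H3K9me3, 11023905 to 13933927 for H3K4me3, 3920283 to 4936265 for H3K4me1 and 2955710 to 3681687 for H3K27ac. The regions cover only part of each window, namely 20514 bp of HOXA (12.4%), 13838 bp of HOXC (10.6%) and 8102 bp of HOXD (6.75%). The longest stretch without a counted region was 34514 bp, in HOXA. Levels are given in CPM (the count per region scaled to a fixed library total), with library sizes scaled by TMM, and per kb of region where regions are compared with each other. A level in the top 20% of all 153244 regions of a mark, by the mean CPM per kb of the control libraries, is called high below. In CPM per kb, the limit of that class was 0.602 (H3K4me3), 8.29 (H3K9me3), 9.61 (H3K4me1) or 8.30 (H3K27ac).

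H3K4me3 was gathered at 1 end of each cluster. Each window was divided by length into 3 equal segments, named by the genes at their ends. H3K4me3 was high in 15 of the 45 regions, and 12 of these 15 lay in the segment of a window at the EVX1 end of HOXA, the HOXC4 end of HOXC or the EVX2 end of HOXD. Those 3 segments hold 14 regions, and the other 6 segments held the remaining 3 high regions among 31. High is a low bar for this mark: in control the 15 reached at most 7.39 CPM per kb. The median of all regions tested for H3K4me3 was 7.90. Some of the 15 rest on few control counts, such as region 13 of HOXC (2, 13 and 0) and region 2 of HOXD (5, 6 and 2). Summed over the 6 libraries, the EVX1 segment held 79.9% of the H3K4me3 counts of the HOXA window. The HOXC4 segment held 96.4% of those of the HOXC window, and the EVX2 segment held 65.1% of those of the HOXD window. In gene order these are the 5′ end of HOXA and HOXD and the 3′ end of HOXC. The middle segment of HOXA averaged 0.190 CPM per kb over the 6 libraries, against 4.31 in its EVX1 segment. The shares describe counted regions, whose number per segment ranged from 3 to 8. Regions were placed by their midpoint, and that of region 14 of HOXC lay just inside the HOXC4 segment. Region 14 held 38.8% of the H3K4me3 counts of the HOXC window, and other cuts were not tried.

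**Figure D1:**
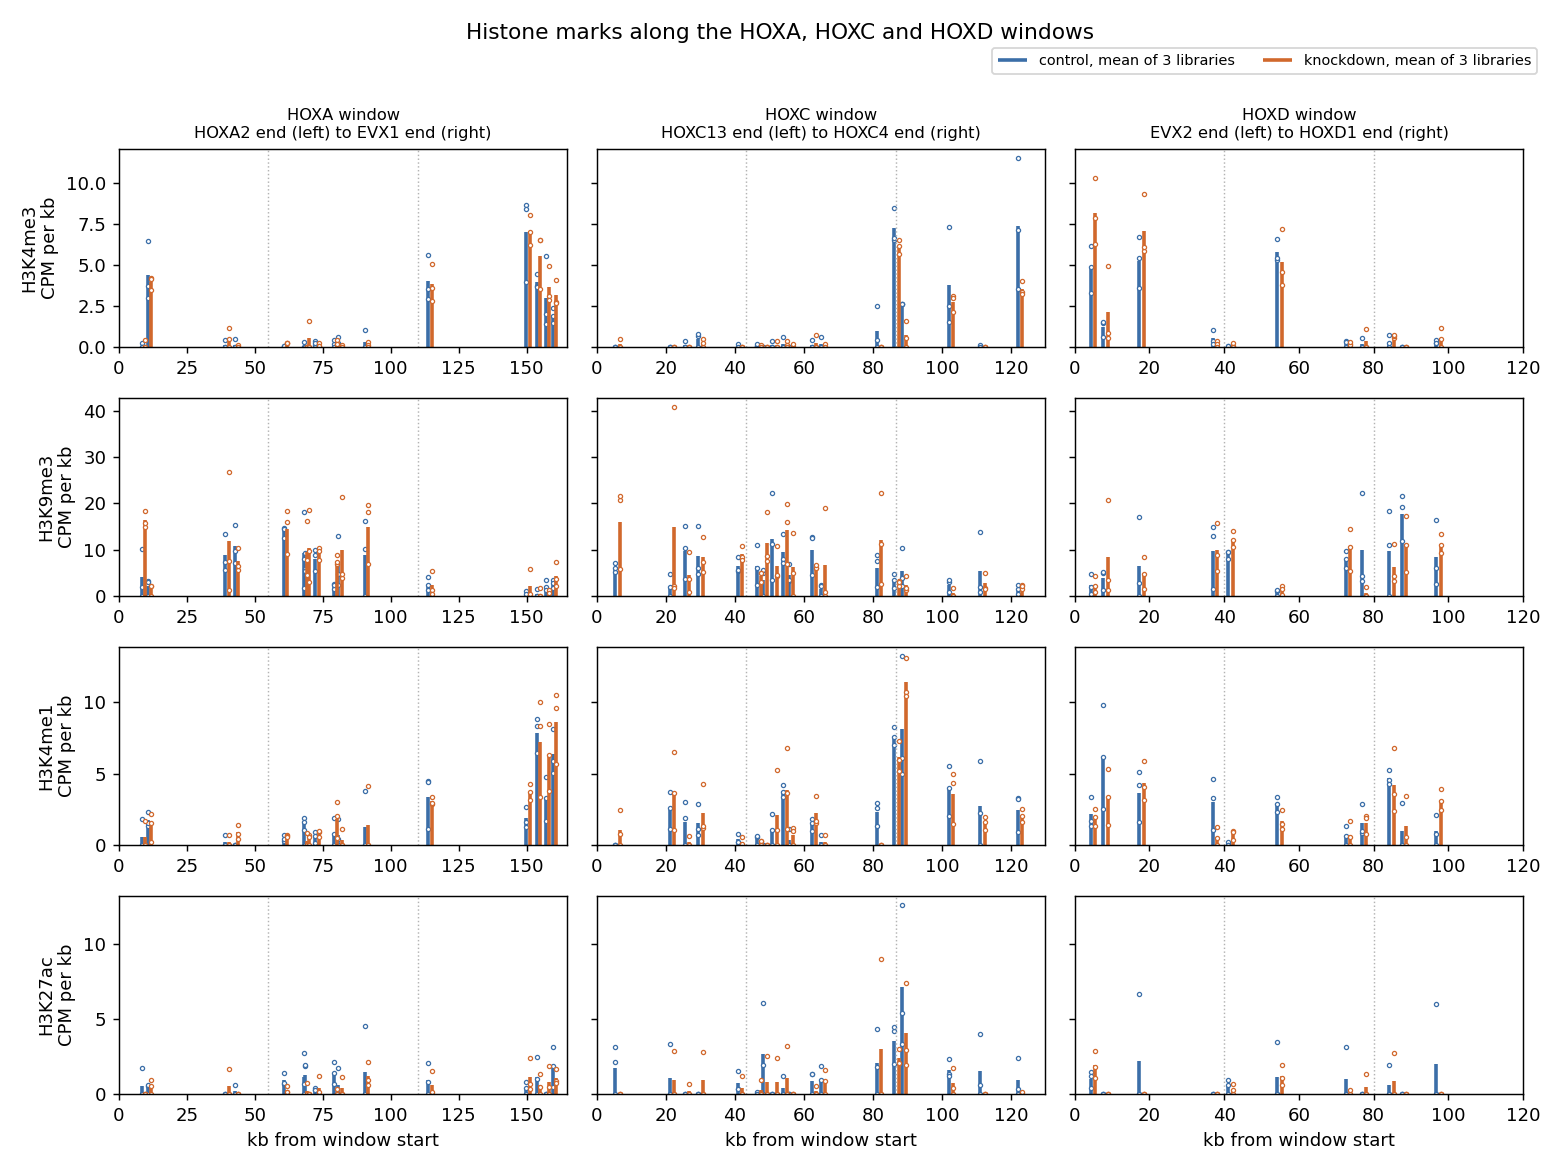
H3K4me3, H3K9me3, H3K4me1 and H3K27ac in CPM per kb of region (vertical axes) against the distance of each region from its window start in kb (horizontal axes), for the HOXA, HOXC and HOXD windows. Bars are means of 3 libraries, open points are single libraries (control blue, knockdown orange), dotted lines divide a window into 3 equal segments; H3K4me3 stands at the EVX1, HOXC4 and EVX2 ends, and H3K9me3 is lowest where H3K4me3 is highest in HOXA.

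In HOXA, all 5 regions of the EVX1 segment had high H3K4me3. The strongest was region 13, chr7:27274778-27276284, with 13.0, 12.6 and 5.99 CPM in the control libraries and 10.6, 9.40 and 12.1 CPM in the knockdown libraries. The third control library was the lowest and the groups overlapped (log2 fold change 0.02, SE 0.27). Region 14, chr7:27278982-27279604, came next per kb over all 6 libraries, with 2.32, 2.78 and 2.28 CPM in control and 2.20, 4.07 and 4.07 CPM in knockdown libraries. Both lie towards EVX1, past the 34514 bp stretch without a counted region. Region 12, chr7:27238720-27240264, before that stretch, had 6.21 ± 2.13 CPM in control and 5.90 ± 1.78 CPM in knockdown libraries (mean ± SD, n = 3 each). The only other high region of the HOXA window was region 2, chr7:27135633-27136738, near the HOXA2 end, with 4.85 ± 2.01 and 4.36 ± 0.457 CPM (mean ± SD, n = 3 each).

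In HOXC, 4 of 5 regions of the HOXC4 segment had high H3K4me3. Region 14, chr12:54411074-54412685, had 10.5, 13.7 and 10.7 CPM in control and 9.91, 10.5 and 9.13 CPM in knockdown libraries. All 3 control libraries lay above all 3 knockdown libraries by a narrow margin (log2 fold change -0.24, SE 0.21). Region 18, chr12:54446795-54448648, the last before the window's end, had the highest H3K4me3 of all 45 regions in control, 7.39 ± 3.97 CPM per kb (SD, n = 3). Its control mean stood at the 91.1 percentile of all regions, but at the 48.8 percentile of the regions with enough H3K4me3 counts to be tested. Its libraries also spread the most, as given below with the comparison of arms.

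In HOXD, 3 of 4 regions of the EVX2 segment had high H3K4me3, and the fourth high region lay mid-window. Region 1, chr2:176944091-176945747, had 4.79 ± 1.43 CPM per kb in control and 8.15 ± 2.02 in knockdown libraries (mean ± SD, n = 3 each). Region 6, chr2:176994287-176995410, in the middle segment between the EVX2 and HOXD1 ends, had 7.36, 5.98 and 6.07 CPM in control and 5.14, 4.23 and 8.07 CPM in knockdown libraries. The groups of region 6 overlapped. All 3 regions of the HOXD1 segment had high H3K9me3 by the mean of the control libraries, and none of them had high H3K4me3. Region 9 rests on 15, 8 and 0 control counts of H3K9me3, and region 11 on 2, 11 and 5. In knockdown libraries region 9 averaged 6.28 CPM per kb of H3K9me3, under the limit for high. Regions 10 and 11 stayed above that limit, at 11.2 and 11.3.

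H3K9me3 lay mostly elsewhere in the clusters. It was high in 16 of the 45 regions, 5 in HOXA, 5 in HOXC and 6 in HOXD, and in none of those with high H3K4me3. Of the 16, 15 lay outside the 3 segments with the most H3K4me3. Per kb of region over the 6 libraries, H3K9me3 was densest in the middle segment of HOXA, at 10.5 CPM per kb against 6.54 at the HOXA2 end and 2.07 at the EVX1 end. In HOXC it was 8.21 in the HOXC13 segment, 7.02 in the middle and 2.504 in the HOXC4 segment. In HOXD it was densest at the other end from H3K4me3, with 10.8 CPM per kb in the HOXD1 segment, from 978 bp of regions, against 7.57 in the middle and 4.50 in the EVX2 segment. The 16 regions were short, with a median width of 458 bp, so that many rest on few counts.

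The region with the most H3K9me3 counts was region 5 of HOXA, chr7:27184288-27188190, 3903 bp long. It had 57.6, 49.1 and 56.8 CPM in control and 35.2, 62.4 and 71.4 CPM in knockdown libraries. The first knockdown library was the lowest and the third the highest of all 6 (log2 fold change 0.06, SE 0.22). Per kb its control level was 14.0 CPM, at the 95.0 percentile of all regions, while its H3K4me3 was 0.0692 CPM per kb. Region 8 of HOXA, chr7:27195590-27200105, named here after its values were seen, was the longest at 4516 bp and held 8.06 ± 2.38 CPM per kb in control (SD, n = 3), just under the limit for high. Region 11 of HOXA, chr7:27215813-27216377, had 8.79 ± 8.21 CPM per kb in control, a spread set by a library with 0 counts.

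In HOXD, region 5, chr2:176980635-176982644, held 9.09 ± 0.831 CPM per kb of H3K9me3 in control (SD, n = 3) and 38.9% of the window's counts. Region 10, chr2:177027940-177028278, in the HOXD1 segment, had 17.6 ± 5.06 CPM per kb in control, the highest of the 45 and at the 98.4 percentile of all regions. It is 339 bp long and rests on 16, 16 and 11 control counts. In HOXC, region 9, chr12:54379253-54379766, had 9.51 ± 3.40 CPM per kb in control. Region 1, chr12:54330822-54331127, at the HOXC13 end, had 6.19 ± 0.958 CPM per kb from 4, 4 and 6 counts. Its knockdown counts were 13, 16 and 5, too few for it to pass the filter of the test.

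High H3K4me3 and high H3K9me3 did not meet in any of the 45 regions, and 14 regions were high in no mark. Across the 45 regions, the control levels per kb of H3K4me3 and H3K9me3 had a Spearman rho of -0.47. It was -0.74 over the 16 HOXA, -0.17 over the 18 HOXC and -0.81 over the 11 HOXD regions. H3K4me3 had a rho of 0.70 with H3K4me1 and of 0.17 with H3K27ac over the 45. These are descriptions: the regions share libraries and neighbours, and short regions share the same coarse counts. Over all regions, too, both marks rarely met: 2.13% of the 30649 regions with high H3K4me3 also had high H3K9me3.

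**Figure D2:**
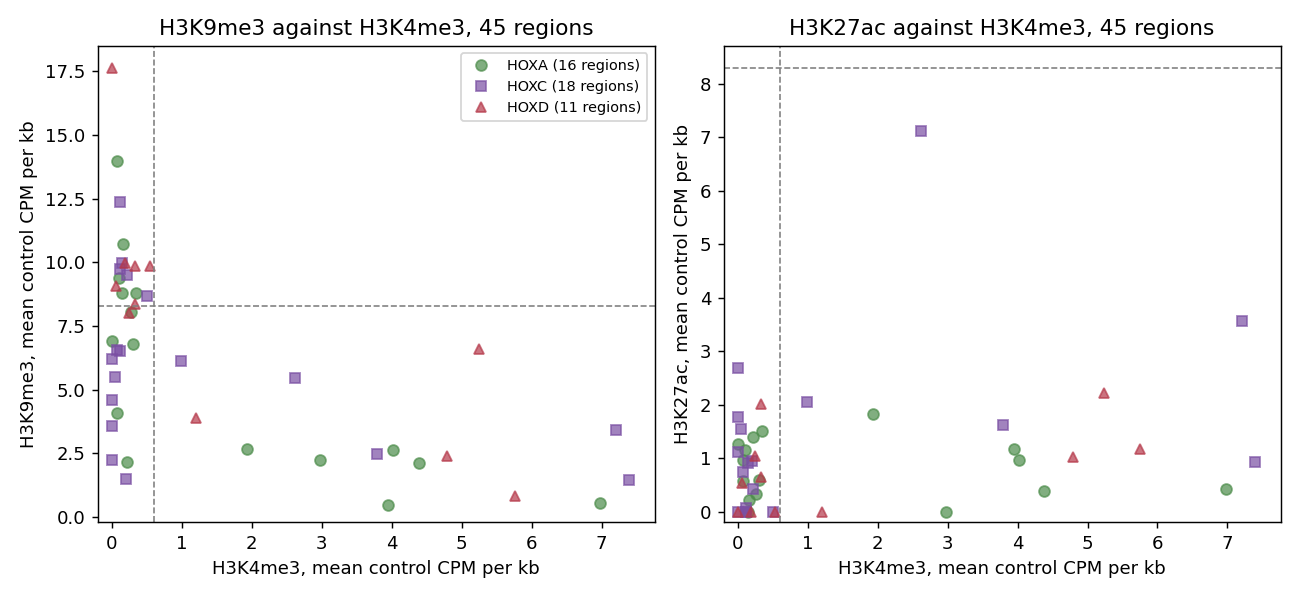
Mean control CPM per kb of H3K9me3 (left) and H3K27ac (right) against H3K4me3 for the 45 regions, by window. Dashed lines are the limits of the top 20% of all regions (0.602 for H3K4me3, 8.29 for H3K9me3, 8.30 for H3K27ac); no region lies above both limits in both panels.

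Most of the 15 regions with high H3K4me3 in the clusters carried little H3K27ac, while their H3K4me1 varied. In control their H3K4me1 ran from the 37.0 percentile of all regions (region 2 of HOXA) to the 70.6 percentile (region 15 of HOXC). None of the 15 was high in H3K27ac, against 38.2% of all 30649 regions with high H3K4me3, and none was high in H3K4me1, against 21.8%. Among the 9217 regions whose H3K4me3 lay in the same range as the 15 (0.991 to 7.39 CPM per kb), these shares were 36.3% and 34.2%. The lower limit of that range came from region 13 of HOXC, which had 2, 13 and 0 H3K4me3 counts in control. Only the range was matched: the 9217 had a median H3K4me3 of 1.89 CPM per kb and a median width of 880 bp, both below those of the 15. The median H3K27ac of the 15 was 1.17 CPM per kb, against 6.61 over all regions with high H3K4me3. Their median H3K4me1 was 3.36 against 4.86, and their median H3K9me3, although under the limit, was 2.49 against 0.667. Their median H3K4me3 was 4.02 against 4.99 CPM per kb, and their median width was 1331 against 1606 bp. These comparisons are descriptions without a test.

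Regions 14 and 15 of HOXC carried the most H3K27ac of the clusters. Region 14 had 6.81, 3.21 and 7.23 CPM in control and 4.86, 3.39 and 3.31 CPM in knockdown libraries. Region 15, chr12:54413661-54414233, had 3.10, 1.93 and 7.23 CPM in control and 4.25, 1.70 and 1.10 CPM in knockdown libraries, from 4 to 22 counts each. In both regions the groups overlapped. Per kb, region 15 reached 7.13 ± 4.86 CPM in control (SD, n = 3), at the 74.3 percentile, the highest H3K27ac percentile of the 45 regions. The same pair also led the HOXC window in H3K4me1, with 7.61 ± 0.625 and 8.10 ± 4.48 CPM per kb in control. In HOXA, H3K27ac stayed at or below the 35.6 percentile, with regions 16, chr7:27284527-27285857 (1.83 ± 1.32 CPM per kb in control), and 11 (1.51 ± 2.62) ahead among regions of at least 300 bp. Region 11 had 0, 8 and 0 H3K27ac counts in control, all from 1 library. In HOXD, regions 1 (1.02 ± 0.572) and 6 (1.17 ± 2.03) led over the 6 libraries among regions of at least 300 bp. Region 6 of HOXD had 0, 0 and 12 H3K27ac counts in the control libraries, so that 1 library made its level.

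H3K4me1 was placed like H3K4me3 in HOXA and HOXC. The EVX1 segment held 74.0% of the H3K4me1 counts of HOXA and the HOXC4 segment 78.6% of those of HOXC. Of the HOXC counts, 32.1% came from region 14, which lies at the cut between segments. Region 14 of HOXA had 7.88 ± 1.25 CPM per kb in control and 7.25 ± 3.44 in knockdown libraries (mean ± SD, n = 3 each). Region 16 of HOXA had 6.36 ± 1.59 and 8.59 ± 2.55. In HOXD the leading regions of at least 300 bp by the mean of 6 libraries were lower, with 4.71 ± 0.510 CPM per kb in control at region 9, chr2:177024595-177024926, and 2.86 ± 0.532 at region 6. No H3K4me1 level of the clusters was in the top 20% of all regions.

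Libraries labelled as ZNF436 knockdown were compared with control libraries to ask where chromatin differed between the arms. In the clusters no region passed the test (edgeR quasi-likelihood test per mark over all regions that passed the count filter, Benjamini-Hochberg adjusted p under 0.05). For H3K4me3, 15 of the 45 regions could be tested and 0 were called, against 0.553% of all tested regions; the smallest adjusted p was 0.246. For H3K9me3, 16 could be tested and 0 were called, against 0.00982% of all; the smallest adjusted p was 0.454. For H3K4me1, 13 could be tested and 0 were called, against 0% of all, and for H3K27ac 1 could be tested and was not called, against 0.0114% of all. The smallest adjusted p was 0.477 for H3K4me1 and 0.820 for H3K27ac. DESeq2 and limma-voom called 0 in every mark too, though DESeq2 gave an adjusted p to 1 of 16 H3K9me3, 12 of 15 H3K4me3, 13 of 13 H3K4me1 and 0 of 1 H3K27ac regions. For H3K4me3 the smallest adjusted p in DESeq2 was 0.0554, close to the limit, and DESeq2 called 1.74% of all tested regions. On simulated counts, edgeR missed most changes of 1 on the log2 scale in H3K9me3, H3K4me1 and H3K27ac, as given with the processing.

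At an unadjusted p under 0.05, 4 of 15 H3K4me3 regions stood out against 10.3% of all tested regions. Of these, 2 were higher in knockdown, against 5.54%, and 2 lower, against 4.71%. There were 2 of 16 for H3K9me3, against 8.36%; both were higher, against 3.86%, and 0 were lower, against 4.5%. There were 0 of 13 for H3K4me1, against 10.5%, and 0 of 1 for H3K27ac, against 11.2%. The median log2 fold change of the tested regions was 0.27 for H3K9me3, -0.08 for H3K4me3 and -0.09 for H3K4me1, and over all tested regions it was within 0.04 of 0 in each mark. A region can pass the count filter through the arm where it is high, so these counts and medians describe the tested regions and not all 45. Since separate cultures are not stated for the replicates, these p-values measure the spread between libraries, which may be technical.

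**Figure D3:**
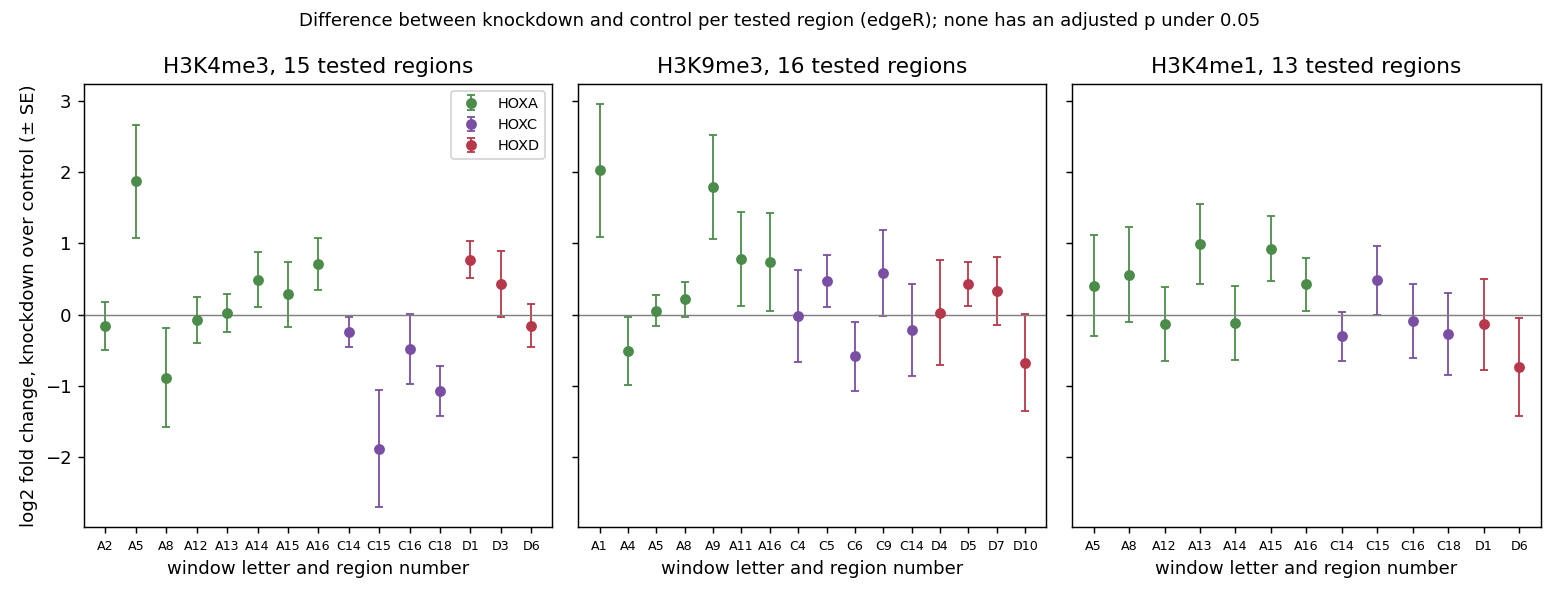
Log2 fold change of knockdown over control for each tested region of H3K4me3 (15), H3K9me3 (16) and H3K4me1 (13), with the SE of edgeR as bars. Regions are ordered by window and position, and the label gives the last letter of the window and the region number; no region has an adjusted p under 0.05, and all 4 tested HOXC regions of H3K4me3 lie below 0.

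The lowest H3K4me3 p values belonged to the end regions of HOXD and HOXC, which went opposite ways. Region 1 of HOXD, chr2:176944091-176945747, at the EVX2 end, had 8.10, 5.48 and 10.2 CPM in control and 17.1, 13.0 and 10.4 CPM in knockdown libraries. Every knockdown library lay above every control library, the closest pair being 10.2 and 10.4 CPM. The log2 fold change was 0.77 (SE 0.26), with a p of 0.00847 and an adjusted p of 0.246 in edgeR, which did not pass. Region 18 of HOXC, chr12:54446795-54448648, at the HOXC4 end, had 13.2, 21.3 and 6.58 CPM in control and 7.43, 6.19 and 6.03 CPM in knockdown libraries. The first and second control libraries lay above the knockdown libraries, and the third lay among them. The log2 fold change was -1.07 (SE 0.35), with a p of 0.0107 and an adjusted p of 0.273 in edgeR, which did not pass. Without the third control library the log2 fold change was -1.41 and the adjusted p in edgeR 0.00269, in a fit that called 2.67% of all tested regions against 0.553% with all libraries. Without any other single library no H3K4me3 region of the windows passed, and the smallest adjusted p in edgeR lay between 0.298 and 0.504. With no filter on low counts the adjusted p in edgeR was 0.000183 for region 18 of HOXC and 0.0441 for region 1 of HOXD.

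All 4 tested HOXC regions had less H3K4me3 in knockdown, with log2 fold changes from -1.88 to -0.24, and none passed; of all tested regions, 49.6% had a log2 fold change above 0. The shared direction rests in part on region 15, which passed the count filter through its control libraries, and on 1 library at region 16. Region 15, chr12:54413661-54414233, named after its values were seen, had 18, 21 and 18 counts in control and 10, 4 and 0 in knockdown libraries (log2 fold change -1.88, SE 0.82, adjusted p of 0.429 in edgeR). Region 16, chr12:54427020-54428394, also named afterwards, had 3.47, 10.04 and 2.11 CPM in control and 4.31, 4.07 and 2.93 CPM in knockdown libraries, where the second control library stood apart and the groups overlapped. Its log2 fold change was -0.48 (SE 0.49), and 0.43 without that library. The summed H3K4me3 of the HOXC window was 29.8, 48.6 and 21.8 CPM in control and 23.2, 21.8 and 18.5 CPM in knockdown libraries, a difference of -0.59 on the log2 scale (SE 0.35). The second control library was the highest, and without it the difference was -0.27. The groups overlapped, with the lowest control library (21.8 CPM) below the highest knockdown library (23.2 CPM).

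In HOXA, region 5, chr7:27184288-27188190, the long region with the most H3K9me3 counts, had 4, 2 and 4 H3K4me3 counts in control and 10, 14 and 12 in knockdown libraries. The groups did not overlap (log2 fold change 1.87, SE 0.79), but the adjusted p in edgeR was 0.405. Region 5 passed the count filter through its knockdown libraries, so the order of its arms is tied to how it entered the test. It stayed below the limit for high H3K4me3 in both arms, at 0.0692 and 0.256 CPM per kb. Region 16, chr7:27284527-27285857, the last of the EVX1 segment and named after its values were seen, had 2.56, 3.20 and 1.94 CPM in control and 3.67, 5.40 and 3.59 CPM in knockdown libraries (log2 fold change 0.71, SE 0.37, adjusted p of 0.538 in edgeR). In all, 3 of 15 tested H3K4me3 regions had every knockdown library above every control library, against 8.8% of all tested regions. In 2 of 15 every knockdown library was below, against 7.47%. These counts include region 5 of HOXA and region 15 of HOXC, which each entered the test through the arm where they were higher.

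For H3K9me3, 3 of 16 tested regions had every knockdown library above every control library, against 7.03% of all tested regions, and 0 had every one below, against 7.45%. The HOXA regions among the 3, regions 9 and 1, passed the count filter through their knockdown libraries, so their order is tied to how they entered the test. Region 9 of HOXA, chr7:27204145-27205069, had 2.45, 1.38 and 2.21 CPM in control and 6.36, 8.26 and 6.75 CPM in knockdown libraries. It rested on 15 control and 52 knockdown counts, and its log2 fold change was 1.79 (SE 0.73, adjusted p of 0.454 in edgeR). Region 1 of HOXA, chr7:27133952-27134311, at the HOXA2 end, had 0, 3.67 and 0.737 CPM in control and 5.38, 6.61 and 5.69 CPM in knockdown libraries. Its log2 fold change was 2.02 (SE 0.93, adjusted p of 0.552 in edgeR), on 10 control and 43 knockdown counts. Region 5 of HOXD had 16.3, 19.3 and 19.2 CPM in control and 28.4, 21.5 and 24.2 CPM in knockdown libraries (log2 fold change 0.43, SE 0.31, adjusted p of 0.751 in edgeR). The strong HOXA region 5 did not share this order of the arms, as its groups overlapped.

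For H3K4me1, the regions with the smallest p all lay in the EVX1 segment of HOXA, and none passed. Region 15, chr7:27281918-27283364, had 4.76, 6.87 and 2.501 CPM in control and 5.50, 12.3 and 9.18 CPM in knockdown libraries (log2 fold change 0.92, SE 0.46, adjusted p of 0.477 in edgeR). Region 13 had 1.95, 4.03 and 2.501 CPM in control and 6.50, 5.66 and 4.79 CPM in knockdown libraries (log2 fold change 0.99, SE 0.56, adjusted p of 0.540 in edgeR). It was the only 1 of 13 tested regions whose groups did not overlap, against 7.9% of all tested regions; 0 had every knockdown library below, against 7.72%. Region 16 had 10.8, 7.82 and 6.75 CPM in control and 14.0, 12.7 and 7.58 CPM in knockdown libraries (log2 fold change 0.42, SE 0.37). For H3K27ac, region 14 of HOXC was the only region tested, with a log2 fold change of -0.57 (SE 0.68, adjusted p of 0.820 in edgeR).

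Summed over all regions of a window, the arms did not overlap in 4 of the 12 pairs of window and mark, 3 higher and 1 lower in knockdown. For comparison, the groups of single tested regions over the whole list did not overlap in 14.5% (H3K9me3), 16.3% (H3K4me3), 15.6% (H3K4me1) and 17.5% (H3K27ac) of cases. The sums share regions and libraries and are descriptions with no test. H3K9me3 over HOXA was 136, 152 and 126 CPM in control and 160, 165 and 159 CPM in knockdown libraries, a difference of 0.23 on the log2 scale (SE 0.083). H3K4me1 over HOXA was 36.6, 43.6 and 26.3 CPM in control and 47.0, 49.3 and 45.9 CPM in knockdown libraries, a difference of 0.45 (SE 0.22). In both, the control libraries spread more widely than the knockdown libraries. Without the third control library, the lowest in both sums, the difference was 0.17 for H3K9me3 and 0.25 for H3K4me1. With library totals in place of TMM, the H3K9me3 difference was 0.15 (SE 0.098).

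H3K4me3 over HOXD was 18.5, 14.2 and 18.8 CPM in control and 27.7, 20.05 and 21.3 CPM in knockdown libraries, a difference of 0.42 on the log2 scale (SE 0.20). Region 1 held 53.0% of these counts, and without it the difference was 0.021. Without the first knockdown library, the highest, it was 0.28. H3K27ac over HOXC was lower in knockdown, with 15.2, 21.2 and 22.0 CPM in control and 12.5, 9.16 and 14.4 CPM in knockdown libraries, a difference of -0.70 (SE 0.26). This sum rests on 27 to 67 counts per library.

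The other sums overlapped between arms. H3K9me3 over HOXC was 71.8 ± 19.1 CPM in control and 77.6 ± 9.97 in knockdown libraries, and over HOXD 53.4 ± 14.0 and 59.0 ± 14.9 (mean ± SD, n = 3 each). H3K4me3 over HOXA was 33.2 ± 11.2 and 36.4 ± 4.30 CPM. H3K4me1 was 35.8 ± 5.27 and 33.2 ± 3.48 CPM over HOXC, and 14.4 ± 1.82 and 13.2 ± 0.671 over HOXD. H3K27ac was 14.8 ± 7.001 and 10.6 ± 5.20 CPM over HOXA, and 6.67 ± 6.005 and 5.71 ± 1.62 over HOXD, where the mean of log2 values was higher in knockdown by 0.29 although the mean CPM was lower. The second control library was the highest of 6 in H3K4me3 over HOXA and HOXC but the lowest over HOXD, where the difference without it was 0.29.

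**Figure D4:**
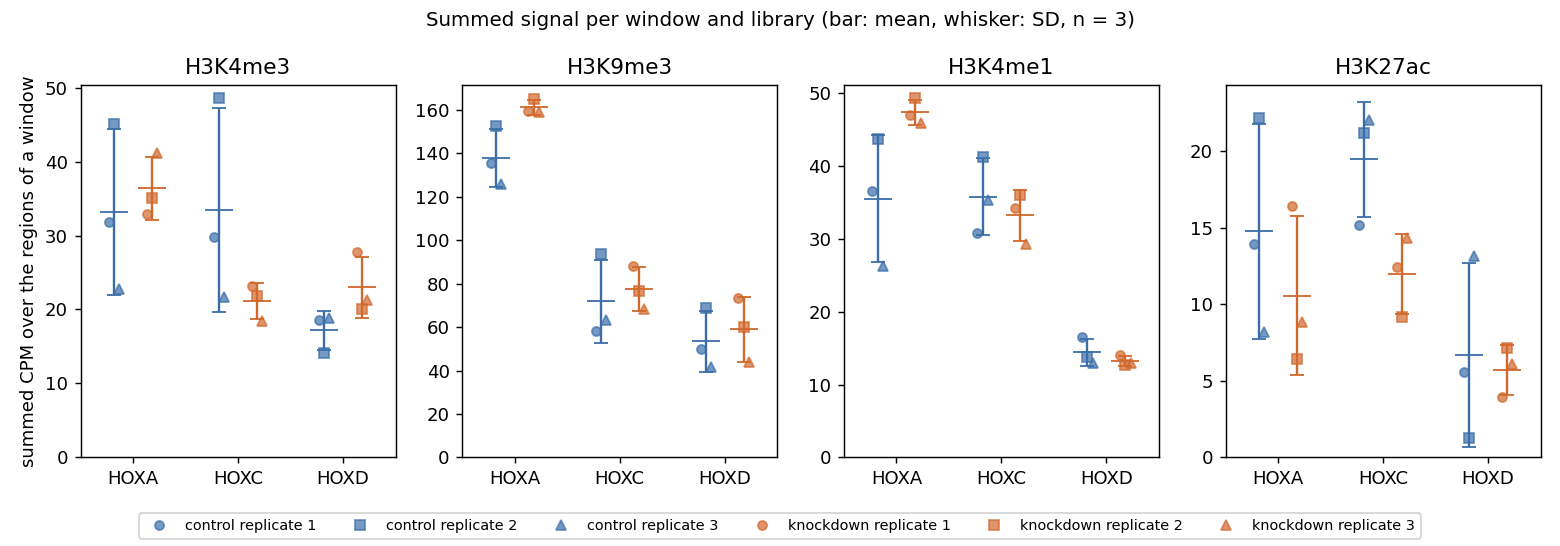
Summed CPM over the regions of the HOXA, HOXC and HOXD windows in each library (vertical axis), by mark, with control in blue and knockdown in orange. Symbols mark the replicate number, bars the mean and whiskers the SD (n = 3); the arms do not overlap for HOXA H3K9me3 and H3K4me1, HOXD H3K4me3 (all higher in knockdown) and HOXC H3K27ac (lower in knockdown).

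By segment of a window, the arms were apart in 6 of the 36 combinations of mark, window and segment, 3 higher and 3 lower in knockdown, a share close to the 14.5% to 17.5% of single regions over the whole list. The middle segment of HOXA had 9.62 ± 1.29 CPM per kb of H3K9me3 in control and 11.3 ± 0.434 in knockdown libraries (mean ± SD, n = 3 each). The EVX2 segment of HOXD had 3.74 ± 0.872 and 6.04 ± 1.71 CPM per kb of H3K4me3, and the EVX1 segment of HOXA had 4.04 ± 0.952 and 5.48 ± 0.541 of H3K4me1. The HOXC4 segment was lower in knockdown for H3K27ac, 2.46 ± 0.399 against 1.24 ± 0.427 CPM per kb. It was also lower for H3K9me3, 2.96 ± 0.573 against 2.05 ± 0.320. Region 14 of HOXC, which lies at the cut of this segment, held 30.5% of the H3K27ac counts of the window. The segment that was lower for H3K4me3, at the HOXC13 end, lay near 0 in both arms.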

How the data were processed

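The authors deposited raw read counts per region over 1 list of 153244 regions that is shared by 24 libraries; the origin of the region list was not stated in the sources used here. Per the submitters' processing notes, the tools were deepTools 3.5.4, bedtools 2.30.0 and Bowtie2 2.4.5 and the build hg19, with no roles given. Group, mark and replicate came from the sample titles. Each mark was fitted on its 6 libraries over all regions with edgeR 4.0.16 in R 4.3.3 (filterByExpr, TMM, quasi-likelihood test, group as the only term), and p-values were adjusted over all tested regions. Fold changes are knockdown over control, and the SE is the log2 fold change over the square root of F. DESeq2 1.42.0, limma-voom (limma 3.58.1), other scalings, filters, a replicate block, other window edges and leaving out each library were alternatives. The test was tried on simulated counts with 200 changed regions per mark, drawn from all tested regions. Of changes of 1 on the log2 scale, it recovered 14.1% (H3K9me3), 66.3% (H3K4me3), 5.10% (H3K4me1) and 3.49% (H3K27ac). Of changes of 2, it recovered 63.4%, 76.8%, 66.0% and 25.0%, and it called 2, 16, 8 and 0 unchanged regions. A region that was not called can therefore still differ between arms.

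Single regions were named by a rule: any region with an adjusted p under 0.05 (there were 0), per mark the 3 tested regions with the smallest p, and per window and mark the 2 regions of at least 300 bp with the most CPM per kb over 6 libraries. Members, lists and this rule were chosen with earlier results of these data known. Counting precision is limited by depth: many regions hold few counts per library.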

Additional observations from a re-analysis of the deposited data

How the results depend on the processing

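The 16 fold changes of single regions and marks printed above gave 201 alternative values, of which 8 changed sign, none of them called. For H3K9me3 at HOXA region 5 it was -0.029 with library totals and -0.10 with no filter, and -0.18 to 0.27 when single libraries were left out. Over the same omissions, H3K4me3 gave -0.27 to 0.19 at HOXA region 13 and -0.85 to 0.43 at HOXC region 16. Of 144 alternative values of the window sums, 8 changed sign, all in 5 sums whose arms overlapped and whose difference was at most 0.29 in size on the log2 scale. The count of called H3K4me3 regions was 0 as reported and 2 with no filter on low counts, where 0.505% of all tested regions were called, and it ranged from 0 to 1 when single libraries were left out, with the 1 reached without control replicate 3, where 2.67% of all were called. Without the region with the most counts, the HOXA H3K9me3 sum differed by 0.34 on the log2 scale, with a wider SE of 0.23 and overlapping arms. The HOXD H3K4me3 sum then differed by 0.021. With windows widened by 20 kb, the HOXD H3K4me1 sum differed by 0.092, where the windows as given put it at -0.12. The other 141 values of the window sums and all 288 values by segment stayed within their limits of replicate spread. For many of them this was fixed in advance. Leaving out 1 of 6 libraries cannot move a segment mean by as much as the SD that served as its limit. A replicate block leaves the difference of a window sum unchanged. The restriction to regions wholly inside the windows left out no region. Libraries of the same replicate number shared no visible pattern between arms: same-number correlations lay between -0.098 and 0.064. Correlations between different numbers lay between -0.081 and 0.098. These values do not settle whether the arms were paired by design. A replicate block called 0 regions of the windows in each mark, with smallest adjusted p of 0.493 (H3K9me3), 0.254 (H3K4me3), 0.499 (H3K4me1) and 0.861 (H3K27ac) in edgeR. The strict filter (30 reads or their equivalent, in 3 or more libraries) left no H3K27ac region of the windows and gave no value. Over all regions, calls also moved with single libraries: H3K4me3 had 148, but 804 without control replicate 3 and 26 without knockdown replicate 3. For H3K27ac, 44 of the 45 regions had too few counts to be tested, although more regions passed the filter over the whole list (61484) than for H3K9me3 (30565).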
